A study of Mus musculus with 22 samples.

Results

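Zinc sulfate in the drinking water was compared with normal water in 6 small-intestine RNA libraries of GRDim mice, 3 per treatment. The 6 were selected on the smooth-muscle gene Myh11: of 22 libraries in the series and 12 from GRDim mice, they are the GRDim libraries with Myh11 above 100 CPM (the count scaled to a common library total), whatever their tissue label. Myh11 lay between 386 and 406 CPM in the water libraries and between 308 and 414 CPM in the zinc libraries, and the highest value of a GRDim library outside the selection was 14.4 CPM. All mice were young adult female FVB/N mice (FVB/NJ in the study's methods) from crosses of GRDim/+ parents, housed conventionally. The treated ones drank 25 mM zinc sulfate for 7 days. GRDim mice carry a point-mutated glucocorticoid receptor that forms dimers poorly, and GRWT mice of the same crosses carry the wild-type receptor.

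The study's methods describe samples of intestinal epithelial cells (IEC) as scraped from the distal ileum. By label, the 3 water libraries are IEC and the 3 zinc libraries are ileum. The tissue label therefore runs with zinc, as does the set digit in the library names, and neither can be told apart from zinc within the 6 libraries. The label did not follow the measured tissue: the summed CPM of 12 smooth-muscle genes was 2397 to 2657 in the IEC-labelled water libraries and 2067 to 2634 in the ileum-labelled zinc libraries, against 206 to 269 in the muscle-poor libraries. Whether labels or libraries were exchanged cannot be told from these data. The tissue label is used as a covariate below as the labels give it, and those values do not measure an effect of tissue. These muscle genes belong to the property used for the selection and are given as a description. Vil1, the villin gene of epithelial microvilli, stood at 2125 to 2302 CPM on water and at 2340 to 2707 CPM on zinc, so that all 6 libraries held epithelium and muscle. Totals ran from 13677029 to 15362805 counts per library, and 3 counts corresponded to 0.195 to 0.219 CPM. Nothing in the labels says that each library came from a separate mouse, so p-values measure the spread between these libraries. Liver genes differed widely between libraries of one treatment: the summed CPM of 8 liver genes was 117, 36.5 and 8.95 in water replicates 4, 5 and 6 and 327, 146 and 8.47 in zinc replicates 1, 2 and 3. Many genes share exonic bases with a neighbour, which makes their counts uncertain. Among those described below these are Mt2, Mtf1, Slc30a1, Slc30a10, Hsd3b3, Gclm, Slc6a20a, Fam151a, Cubn, Raet1e, Gbp2, Gbp10, Tgtp1, Il18bp, Cxcl10, Usp18, Duoxa1, Duoxa2, B3gnt7, Plet1, Trpm5, Ndrg1, Ccnd1, BC035947 and Vil1. Reads of close paralogs (metallothioneins, cytochrome P450, Reg3, Gbp and Tgtp genes) may likewise be split or lost, since reads mapping to several places were left out.

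Intestinal epithelial cells meet dietary zinc first. The sensor MTF1 binds metal response elements when cytosolic zinc rises and switches on metallothioneins, small cysteine-rich proteins that hold zinc, while importers of the SLC39 family and exporters of the SLC30 family set how much zinc enters and leaves. The same epithelium absorbs nutrients through its brush border, detoxifies what it absorbs, and answers microbes and interferon from the lymphocytes that sit between its cells. The glucocorticoid receptor restrains many of these inflammatory programmes, partly through dimers on DNA.

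The 5′ windows of 4 called genes are printed because they hold motifs that the zinc and interferon pathways are known to use. Windows of the called genes Ifit2 and Cxcl9 held no match to the interferon core searched here, and Cxcl10 was added after its values were seen. They come from RefSeq, build GRCm38.p6, and run from 250 bases before to 50 bases after the annotated start on the gene's own strand. In Mt1 (chr8:94178839-94179138, plus strand) and Mt2 (chr8:94172368-94172667, plus strand) the capitals mark the metal response element core, searched as TGCACNC and TGCGCNC on both strands, with 3 and 4 matches. In Gbp2 (chr3:142620413-142620712, plus strand) and Cxcl10 (chr5:92348840-92349139, minus strand) they mark the interferon-stimulated response element core, searched on both strands as GAAA and a second GAAA separated by NN, that is by any pair of bases, with 1 match each.
Mt1: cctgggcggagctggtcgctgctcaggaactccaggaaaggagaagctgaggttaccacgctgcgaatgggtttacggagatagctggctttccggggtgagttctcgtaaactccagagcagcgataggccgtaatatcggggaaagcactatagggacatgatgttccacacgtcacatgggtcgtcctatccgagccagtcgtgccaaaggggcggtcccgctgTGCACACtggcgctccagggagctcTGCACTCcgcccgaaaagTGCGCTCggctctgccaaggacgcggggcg
Mt2: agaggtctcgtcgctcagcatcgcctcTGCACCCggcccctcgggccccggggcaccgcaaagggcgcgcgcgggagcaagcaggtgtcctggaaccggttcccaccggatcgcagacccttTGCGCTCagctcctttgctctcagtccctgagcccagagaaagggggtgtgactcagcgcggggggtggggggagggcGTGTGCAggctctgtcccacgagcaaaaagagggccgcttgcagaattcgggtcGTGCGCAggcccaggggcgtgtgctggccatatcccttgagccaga
Gbp2: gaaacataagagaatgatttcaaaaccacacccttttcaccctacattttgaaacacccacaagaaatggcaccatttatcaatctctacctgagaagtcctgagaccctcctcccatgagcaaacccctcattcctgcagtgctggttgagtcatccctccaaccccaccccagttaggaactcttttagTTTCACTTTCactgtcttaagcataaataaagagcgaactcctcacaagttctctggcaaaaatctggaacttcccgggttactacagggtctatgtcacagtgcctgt
Cxcl10: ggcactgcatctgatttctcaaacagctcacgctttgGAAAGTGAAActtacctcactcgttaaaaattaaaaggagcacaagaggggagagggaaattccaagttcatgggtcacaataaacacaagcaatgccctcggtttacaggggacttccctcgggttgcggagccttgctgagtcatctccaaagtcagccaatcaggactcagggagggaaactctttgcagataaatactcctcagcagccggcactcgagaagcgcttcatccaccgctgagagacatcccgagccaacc

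The metal core is common: 28.2% of the 27025 genes with a window in the table hold at least 1 match, and so do 39.3% of the 11398 tested genes with a window. Among genes called higher on zinc it was present in 32 of 91 with a window (35.2%), and among genes called lower in 13 of 63 (20.6%). The interferon core is rare, at 3.99% of all genes with a window and 3.95% of those tested. It was present in 10 of the 63 genes called lower (15.9%) and in 2 of the 91 called higher (2.2%), and in 12 of the 31 members of the type 2 interferon list with a window (38.7%). These matches describe letters in a window and are not evidence that a factor was bound.

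Of 15947 genes tested, 123 were called higher and 89 lower on zinc. Calls needed a Benjamini-Hochberg adjusted p below 0.05 in edgeR's quasi-likelihood test together with a change of more than 0.8 on the log2 scale. The calls were 0.771% of the genes tested for higher and 0.558% for lower. An adjusted p below 0.05 at any fold change was reached by 1228 genes, and an unadjusted p below 0.05 by 3620. The median log2 fold change was -0.01 over all genes tested, 1.17 over the genes called higher and -1.201 over those called lower. The 3 zinc libraries lay wholly above the 3 water libraries in 121 of the 123 genes and wholly below in 89 of the 89, beside 14.4% and 17.6% of all genes tested. Called genes included 12 of 31 of drug and steroid metabolism on the higher side, and 11 of 44 of the type 2 interferon response and 8 of 24 of the epithelial response to microbes on the lower side. In bulk tissue, fewer cells of a type and less RNA per cell cannot be told apart.

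**Figure D1:**
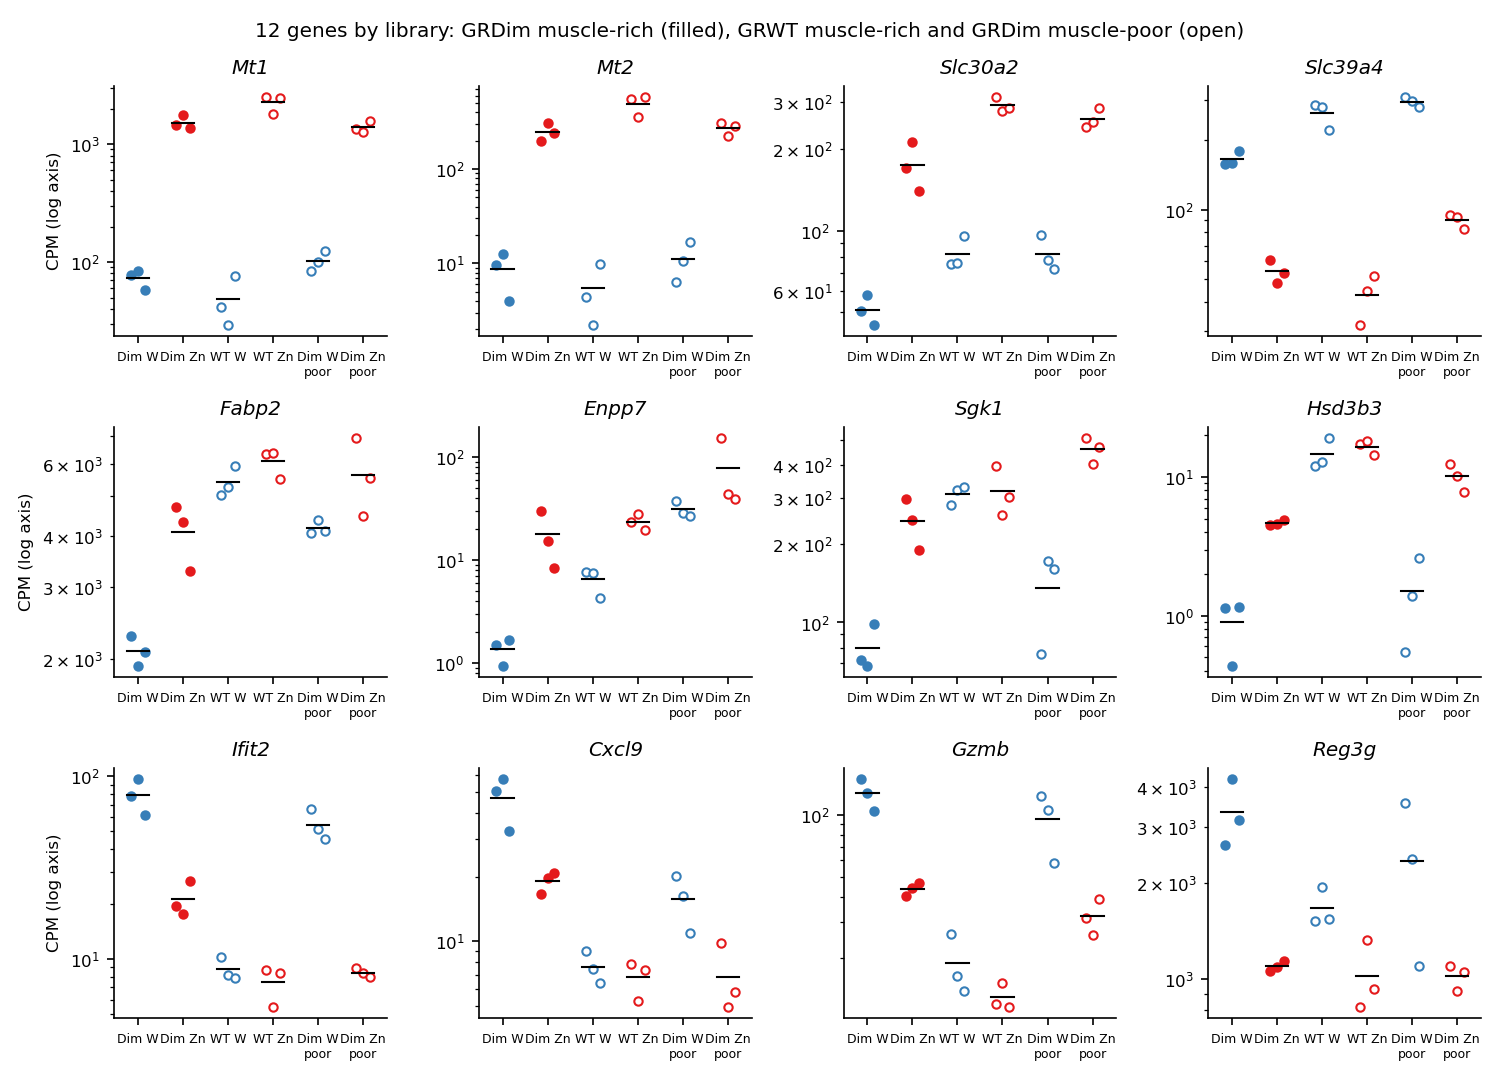
TMM-normalised CPM on a log axis for 12 genes, 1 point per library with a bar at the mean. Filled points are the 3 GRDim water (Dim W) and 3 GRDim zinc (Dim Zn) muscle-rich libraries, and open points are the GRWT muscle-rich and GRDim muscle-poor libraries; the filled groups do not overlap in any of the 12 genes, from Mt1 (57.7 to 84.6 against 1356 to 1753 CPM) to Reg3g (2648 to 4238 against 1066 to 1143 CPM).

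Zinc storage genes showed the largest changes. Mt1 (ENSMUSG00000031765, GRCm38 chromosome 8, 94179082 to 94180327) stood at 77.6, 84.6 and 57.7 CPM in water replicates 4, 5 and 6 and at 1442, 1753 and 1356 CPM in zinc replicates 1, 2 and 3. The groups were far apart, and the log2 fold change was 4.37 ± 0.35 (SE, adjusted p = 0.000635). Mt2 (ENSMUSG00000031762, chromosome 8, 94172664 to 94173568), its neighbour and partner, went from 9.51, 12.6 and 4.03 CPM to 200, 306 and 238 CPM, a change of 4.85 ± 0.47 (adjusted p = 0.00132). Mt4, better known from stratified squamous epithelium, had 2, 3 and 0 counts on water and 403, 283 and 354 counts on zinc. The ratio of the summed counts, each over its library totals, was 213 (95% exact Clopper-Pearson interval 91 to 657, counting error only). Mt3, the form best known from neurons, did not pass (0.38 ± 0.42, adjusted p = 0.65), and Mtf1 itself was at 62.9 to 67.8 CPM on water and 64.8 to 74.3 CPM on zinc (adjusted p = 0.415). Mt2, Mtf1 and Slc30a1 overlap a gene on the other strand, and the strand setting of the counting is not stated.

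Among transporters, Slc30a2 (ENSMUSG00000028836, chromosome 4, 134343181 to 134354484), an exporter that loads zinc into vesicles, had 50.6, 58.0 and 44.9 CPM on water and 171, 214 and 140 CPM on zinc. It rose by 1.77 ± 0.16 (adjusted p = 0.000635). Slc39a4 (ENSMUSG00000063354, chromosome 15, 76612383 to 76617384), the importer of the apical membrane, moved the other way, from 158, 160 and 180 CPM to 60.7, 48.3 and 53.5 CPM. It fell by 1.62 ± 0.17 (log2, adjusted p = 0.0011). Slc30a10, a manganese exporter placed in the same family, rose by 1.11 ± 0.27 (adjusted p = 0.0436), but its zinc replicate 3 (21.3 CPM) lay close to the highest water library (20.3 CPM), and the call was lost in 9 of 15 alternative settings. Slc30a1, the basolateral exporter, was at 157 to 168 CPM on water and at 211, 229 and 147 CPM on zinc, with overlap and no call (0.27 ± 0.13, adjusted p = 0.274). Of 8 exporters tested 2 were called higher, and of 12 importers tested 1 was called lower, beside 0.771% and 0.558% of all genes. Tfrc, the transferrin receptor for iron uptake, had a value of 0.75 ± 0.12 (adjusted p = 0.00544), just under the fold threshold, with 283 to 298 CPM on water and 430 to 512 CPM on zinc.

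In the drug and steroid metabolism list 12 of 31 genes tested were called higher and 0 lower, with a median log2 fold change of 0.97, beside 0.771% of all genes called higher and a median of -0.01. Hsd3b3, a steroid dehydrogenase, had 1.14, 0.43 and 1.15 CPM on water and 4.52, 4.55 and 4.94 CPM on zinc, and rose by 2.34 ± 0.28 (adjusted p = 0.000635). Aldh1a1, which makes retinoic acid, went from 236 to 280 CPM to 489 to 556 CPM and rose by 1.05 ± 0.10 (adjusted p = 0.000184). Ces1g, a carboxylesterase, rose by 1.66 ± 0.19 (adjusted p = 0.000635). The cytochrome P450 genes Cyp2d26 (1.53 ± 0.17), Cyp2c65 (1.51 ± 0.26), Cyp3a11 (1.78 ± 0.43) and Cyp3a25 (1.13 ± 0.25) were also called. Aadac, an arylacetamide deacetylase, went from 2.48, 2.53 and 3.64 CPM to 17.8, 14.99 and 7.62 CPM, with its zinc replicate 3 nearest to the water libraries. The summed CPM of the list was 2198, 2010 and 2207 on water and 3627, 3543 and 3186 on zinc. The liver genes summed to 327, 146 and 8.47 CPM in the same zinc libraries and to 117, 36.5 and 8.95 CPM in the water libraries, and the part of liver RNA in the result was not tested. With the tissue label as a covariate, which only the GRWT libraries can estimate, 4 members of the list were called higher.

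Of 20 genes of the Nrf2 and glutathione list, 3 were called higher and 0 lower, beside 0.771% of all genes called higher. The count was 1 with the tissue label as covariate, 0 with the muscle class as covariate in all 22 libraries and 5 with the 6 libraries alone. Gclm, a subunit of the enzyme that starts glutathione synthesis, had 93.8 to 102 CPM on water and 156 to 202 CPM on zinc (0.88 ± 0.11, adjusted p = 0.000792). Gstm1, a glutathione transferase, rose by 0.95 ± 0.09 (adjusted p = 0.00018) and Abcc2, the export pump for glutathione conjugates, by 1.37 ± 0.26 (adjusted p = 0.0168), with a call that was lost in 5 of the 6 settings that left out a library. Nqo1, a quinone reductase that is a textbook Nrf2 target, reached 0.61 ± 0.21 and did not pass (adjusted p = 0.115). Hmox1, heme oxygenase, had a value of -0.36 and did not pass either.

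Several absorptive genes of the enterocyte rose, though few of each list were called. Higher were 1 of 25 lipid handling genes and 3 of 26 brush border transporters, beside 0.771% of all genes, and 0 were lower. Fabp2 (ENSMUSG00000023057, chromosome 3, 122895072 to 122899506), the intestinal fatty acid binding protein, had 2269, 1918 and 2071 CPM on water and 4687, 4318 and 3267 CPM on zinc, a rise of 0.97 ± 0.12 (adjusted p = 0.000635). Enpp7, the sphingomyelinase of the brush border, went from 1.49, 0.94 and 1.66 CPM to 30.0, 15.4 and 8.40 CPM (3.69 ± 0.54, adjusted p = 0.00606). The 3 zinc libraries were spread widely, and all lay above all water libraries. The brush border genes called were Aqp7, a glycerol channel (1.56 ± 0.20, adjusted p = 0.00105), Slc6a20a, an imino acid carrier (0.97 ± 0.13, adjusted p = 0.00184), and Slc28a1, a nucleoside carrier (2.41 ± 0.65, adjusted p = 0.0384), which reached at most 1.13 CPM. The groups overlapped for Slc28a1, and its call was lost in 4 of the 6 settings that left out a library. Further genes of the larger rises, by the same limits on level and overlap, were Fam151a (3.53 ± 0.66), the cytidine deaminase gene Cda (3.20 ± 0.58), the sugar carrier gene Slc5a4b (2.05 ± 0.23), the NKG2D ligand gene Raet1e (2.96 ± 0.57), Mroh7 (1.95 ± 0.43) and Il5ra, a subunit of the interleukin-5 receptor (2.53 ± 0.39). The call on Mroh7 was lost in 4 of the 6 settings that left out a library. Without zinc replicate 3, 5 brush border genes were called higher.

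Of 9 tested markers of the proximal small intestine 2 were called higher, beside 0.771% of all genes, and 0 lower, at a median of 1.14. The count was 0 with the tissue label as covariate, 5 without zinc replicate 3, 0 without zinc replicate 1 and 1 without any one of the other libraries. Of these calls only Gata4 is on a gene that marks the proximal gut, because cubilin, which Cubn encodes, takes up vitamin B12 in the distal ileum. Gip, Fabp1 and Apoa4, other members, had values of 3.22, 1.26 and -0.68 and did not pass, and Lct and Pdx1 were too low to be tested. Cubn had 173, 210 and 198 CPM on water and 421, 385 and 285 CPM on zinc (0.91 ± 0.13, adjusted p = 0.00229), and Gata4, a transcription factor of the proximal gut, had 1.85, 1.73 and 1.92 CPM and 4.06, 3.01 and 2.82 CPM (0.84 ± 0.24, adjusted p = 0.0418). Cubn makes up most of the summed CPM of the list, which was 241 to 279 on water and 496, 455 and 322 in zinc replicates 1, 2 and 3. The list of bile acid uptake and ileal genes had 0 of 11 called in edgeR, 1 in DESeq2 and 2 without zinc replicate 3. Its median was 0.48, and 5 members had an unadjusted p below 0.05, beside 3620 of all 15947 genes. Slc10a2, the bile acid carrier of the ileum, stood at 841 to 902 CPM on water and at 1227 to 1354 CPM on zinc (0.57 ± 0.10, adjusted p = 0.00571). The call on Cubn was lost without zinc replicate 1 and with the tissue label, and that on Gata4 with the tissue label, with the muscle class and in 5 of the 6 settings that left out a library.

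**Figure D2:**
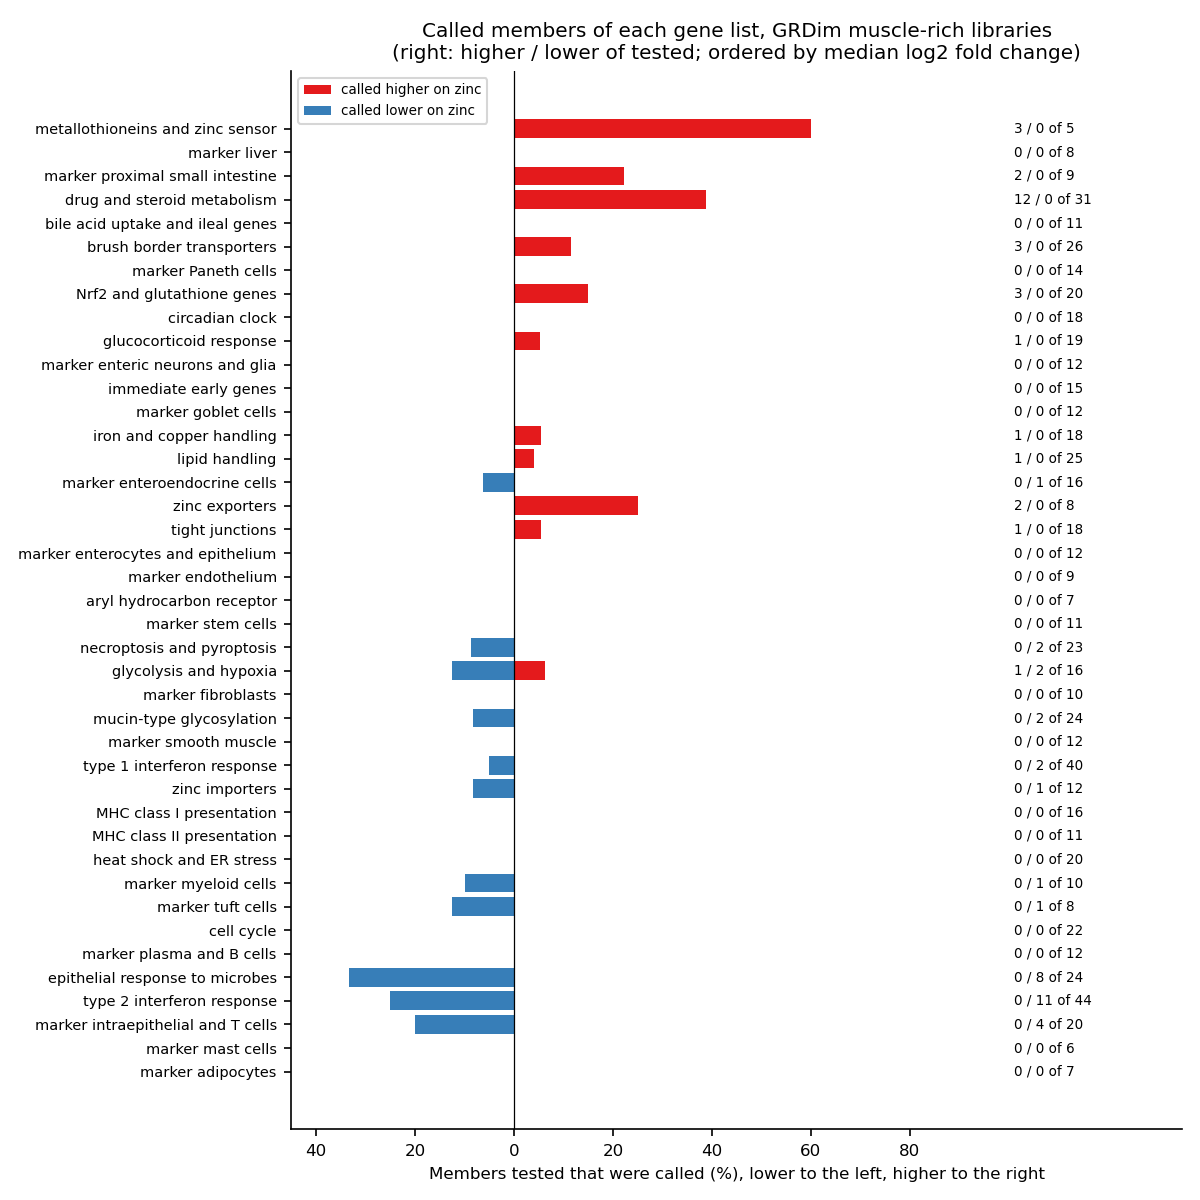
Share of tested members called higher (red, to the right) or lower (blue, to the left) on zinc, for each gene list with 5 or more members tested except the study's own lists, in percent, ordered by median log2 fold change, with the counts printed at the right. Drug and steroid metabolism has 12 of 31 called to the right and the metallothioneins 3 of 5, and the epithelial response to microbes (8 of 24), type 2 interferon response (11 of 44) and lymphocyte markers (4 of 20) extend to the left.

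The type 2 interferon list, genes that interferon-γ induces, had 11 of 44 tested members called lower and 0 higher, and 40 of the 44 had a negative log2 fold change, with a median of -0.54, beside 0.558% of all genes called lower. The count was 2 with the tissue label as covariate, and 6 without water replicate 5 and 7 without zinc replicate 2. Gbp2 (ENSMUSG00000028270, chromosome 3, 142620602 to 142638008), a guanylate-binding GTPase, had 130, 120 and 111 CPM on water and 49.1, 59.3 and 62.6 CPM on zinc and fell by 1.07 ± 0.12 (log2, adjusted p = 0.000671). Il18bp, the binding protein that neutralises interleukin-18, fell from 65.4 to 71.7 CPM to 22.8 to 33.6 CPM (-1.22 ± 0.15, adjusted p = 0.0011). Socs1, a brake on JAK signalling, fell by 1.10 ± 0.17 (log2, adjusted p = 0.00169). The chemokines Cxcl9 (50.7, 57.2 and 32.7 against 16.6, 19.9 and 20.8 CPM) and Cxcl10 (9.22, 12.6 and 7.74 against 3.76, 3.36 and 4.30 CPM), which draw T cells, fell by 1.29 ± 0.21 and 1.37 ± 0.26 on the log2 scale. The other called members were Gbp10, Tgtp1, Tgtp2, Iigp1, Igtp and Irgm1, all GTPases of this response. The receptor and kinase genes were not among the calls: Ifngr1, Ifngr2, Jak1 and Jak2 had log2 values of 0.11, 0.25, 0.08 and 0.20.

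Irf8, an interferon regulatory factor, had -0.51 ± 0.07 (adjusted p = 0.0011), below the fold threshold. Ubd, a ubiquitin-like modifier, had 325, 250 and 250 CPM on water and 119, 172 and 176 CPM on zinc, without overlap, but did not pass (-0.82 ± 0.34, adjusted p = 0.203). In the type 1 interferon list 2 of 40 members were called lower, beside 0.558% of all genes, and 0 higher, at a median of -0.11. The count was 0 with the tissue label as covariate and 1 on leaving out any one library. Ifit2 (ENSMUSG00000045932, chromosome 19, 34550694 to 34576419), which binds foreign RNA, went from 78.4, 96.3 and 61.3 CPM to 19.4, 17.6 and 26.7 CPM and fell by 1.89 ± 0.22 (log2, adjusted p = 0.00168). Usp18, which removes ISG15, was the other (-1.24 ± 0.28, adjusted p = 0.021), and its call was lost in all 6 settings that left out a library. Isg15, Mx1 and Oas1a had values of -0.16, -0.14 and -0.06 and did not pass. No antigen presentation gene was called in edgeR or DESeq2. An unadjusted p below 0.05 was reached by 9 of 16 class I and 1 of 11 class II genes, beside 3620 of all 15947. All 16 and all 11 had a negative value, with a median of -0.19 in each list.

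The epithelial response to microbes had 8 of 24 tested members called lower, beside 0.558% of all genes, and 0 higher, at a median of -0.50. Reg3g (ENSMUSG00000030017, chromosome 6, 78466269 to 78468872), a bactericidal lectin, had 2648, 4238 and 3162 CPM on water and 1066, 1089 and 1143 CPM on zinc and fell by 1.61 ± 0.21 (log2, adjusted p = 0.00299). Reg3b, its relative, went from 7654, 12570 and 9000 CPM to 4825, 4282 and 3975 CPM (-1.16 ± 0.22, adjusted p = 0.0123). Saa1, serum amyloid A, fell from 134, 234 and 180 CPM to 47.3, 37.3 and 45.5 CPM (-2.08 ± 0.27, adjusted p = 0.00352). Reg3a and Saa2 of the same list had values of 1.07 and 1.26 and did not pass (adjusted p = 0.0512 and 0.583). In DESeq2, 1 member of the list was called higher and 8 lower. Duox2, which makes hydrogen peroxide at the epithelial surface, fell by 1.02 ± 0.18 (log2) together with its maturation factor Duoxa2, which fell by 1.64 ± 0.22 and overlaps Duoxa1. Tlr2, a receptor for bacterial lipopeptides, had 22.1, 19.7 and 18.9 CPM on water and 9.71, 10.6 and 10.4 CPM on zinc (-0.98 ± 0.13, adjusted p = 0.000635). Il17a, the cytokine of the T cells that answer adherent bacteria, was at 3.34, 1.88 and 1.15 CPM on water and at 0.38, 0.42 and 0.35 CPM on zinc. With the tissue label as covariate, 0 members of this list were called lower.

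Markers of intraepithelial and T cells were lower in the zinc libraries along with the interferon genes. Of 20 tested members 4 were called lower, beside 0.558% of all genes. All 20 had a negative value, with a median of -0.55, beside -0.01 over all genes. The summed CPM of the list was 800, 738 and 715 on water and 426, 450 and 428 on zinc. Gzmb (ENSMUSG00000015437, chromosome 14, 56258838 to 56262260), the granzyme of activated killer cells, went from 149, 128 and 105 CPM to 40.03, 43.77 and 46.63 CPM (-1.55 ± 0.21, adjusted p = 0.00429). Gzma fell by 1.08 ± 0.16 and Cd8b1 by 1.02 ± 0.27 on the log2 scale. Cd8a and Cd3e, which define these cells, had values of -0.61 ± 0.13 and -0.69 ± 0.28 and were not called. With the tissue label as covariate 0 of the 20 were called lower. Myeloid markers (1 of 10 called lower, the Fc receptor gene Fcgr1) summed to 363 to 410 CPM on water and 263 to 332 CPM on zinc. The call on Fcgr1 was lost with the tissue label or the muscle class as covariate and in 3 of the 6 settings that left out a library (without water replicate 4, zinc replicate 1 or zinc replicate 2). Plasma and B cell markers (0 of 12 called, median -0.31) ranged over 21630 to 26750 summed CPM on water and 17850 to 24350 CPM on zinc, with overlap. The part of lymphocyte number in the fall of the interferon genes was not tested.

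**Figure D3:**
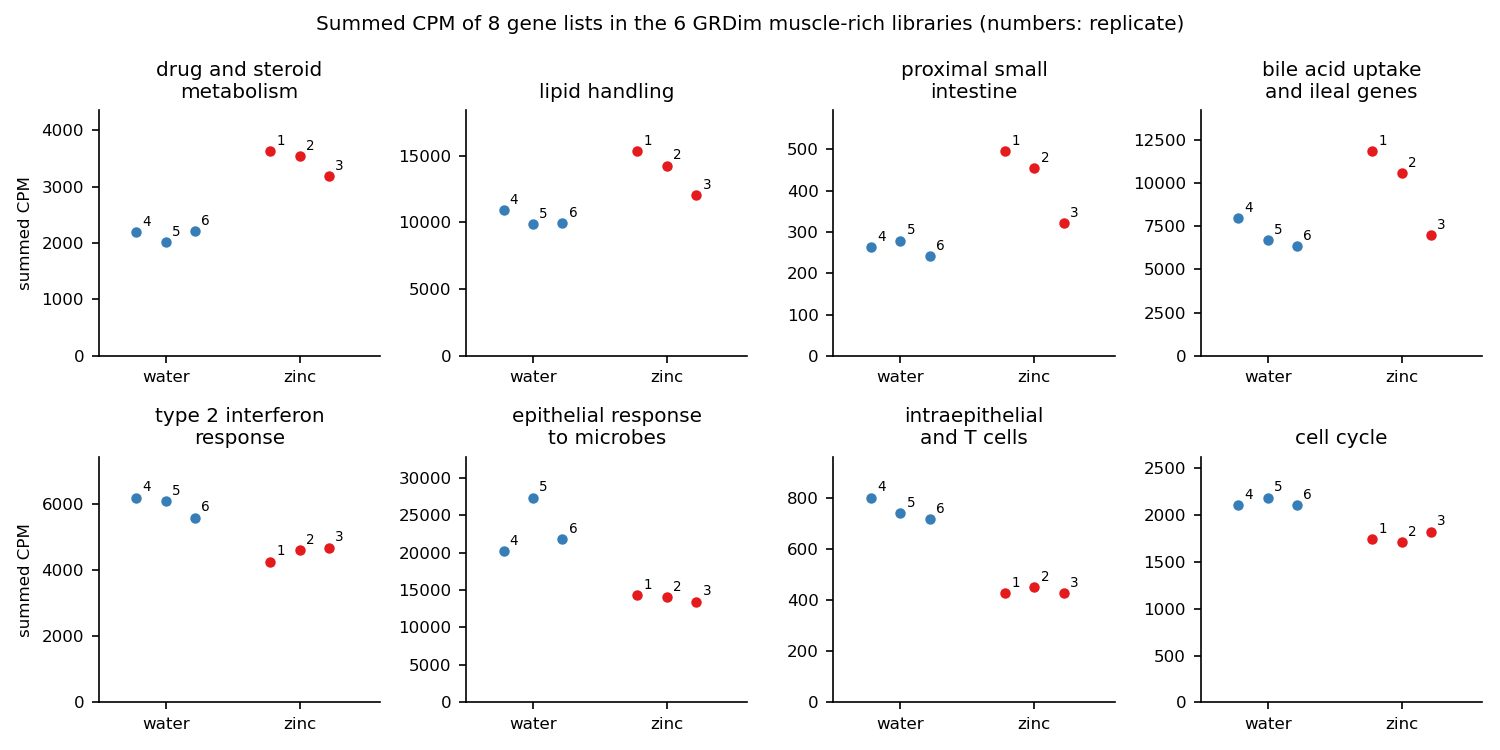
Summed TMM-normalised CPM of 8 gene lists in each of the 6 libraries, water in blue and zinc in red, with the replicate number beside each point and axes that start at 0. The zinc libraries sit together for the interferon, microbial and lymphocyte lists (426 to 450 CPM for lymphocytes), whereas zinc replicate 3 lies below zinc replicates 1 and 2 for the list of proximal markers, most of it Cubn (322 against 455 and 496 CPM) and within the water range for the ileal list (6992 CPM against 6368 to 7960).

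Single genes with other roles were among the larger falls. The calls on Plet1, B3gnt7, St6galnac6, Pax4, Trpm5, Hk2, Pfkfb3, Ndrg1, Ltf and Tnf, given here, were lost with the tissue label as covariate. Plet1 (ENSMUSG00000032068, chromosome 9, 50494525 to 50505482), a membrane-anchored surface protein, had 108, 124 and 69.2 CPM on water and 3.84, 3.99 and 9.24 CPM on zinc and fell by 4.13 ± 0.35 (log2, adjusted p = 0.000675). B3gnt7, a glycosyltransferase, fell from 221 to 256 CPM to 56.7 to 85.5 CPM (-1.71 ± 0.19, adjusted p = 0.00168), and St6galnac6, a sialyltransferase, fell by 1.18 ± 0.22 on the log2 scale. Pax4, a transcription factor of endocrine cells, Trpm5, the cation channel of tuft cells, and Tac1, the substance P precursor, had log2 changes of -2.65 ± 0.45, -1.70 ± 0.24 and -1.0 ± 0.11, all called. Enteroendocrine markers as a list had 1 of 16 called lower and 0 higher in edgeR, and 1 of each in DESeq2. Of the 16, 13 had a positive value, and the sum was 394 to 406 CPM on water and 435 to 493 CPM on zinc. Tuft cell markers had 1 of 8 called lower, with 3 positive and 5 negative values. Hk2 and Pfkfb3, which drive glycolysis, had changes of -0.95 ± 0.11 and -0.98 ± 0.23, both called, whereas Ndrg1 of the same list rose by 1.12 ± 0.14. The call on Pfkfb3 was lost in each of the 6 settings that left out a library. Ltf, the iron-binding lactoferrin, fell by 2.05 ± 0.39 (log2) and Tnf by 1.81 ± 0.44 (adjusted p = 0.00636 and 0.0262), the latter from 2.55, 5.27 and 2.30 CPM to 0.53, 0.91 and 1.41 CPM. Duoxa1 had -1.70 ± 0.37 (adjusted p = 0.0121), and 0.23 with the tissue label as covariate. Tnf, at a few CPM, lost its call in 3 of the 6 settings that left out a library.

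**Figure D4:**
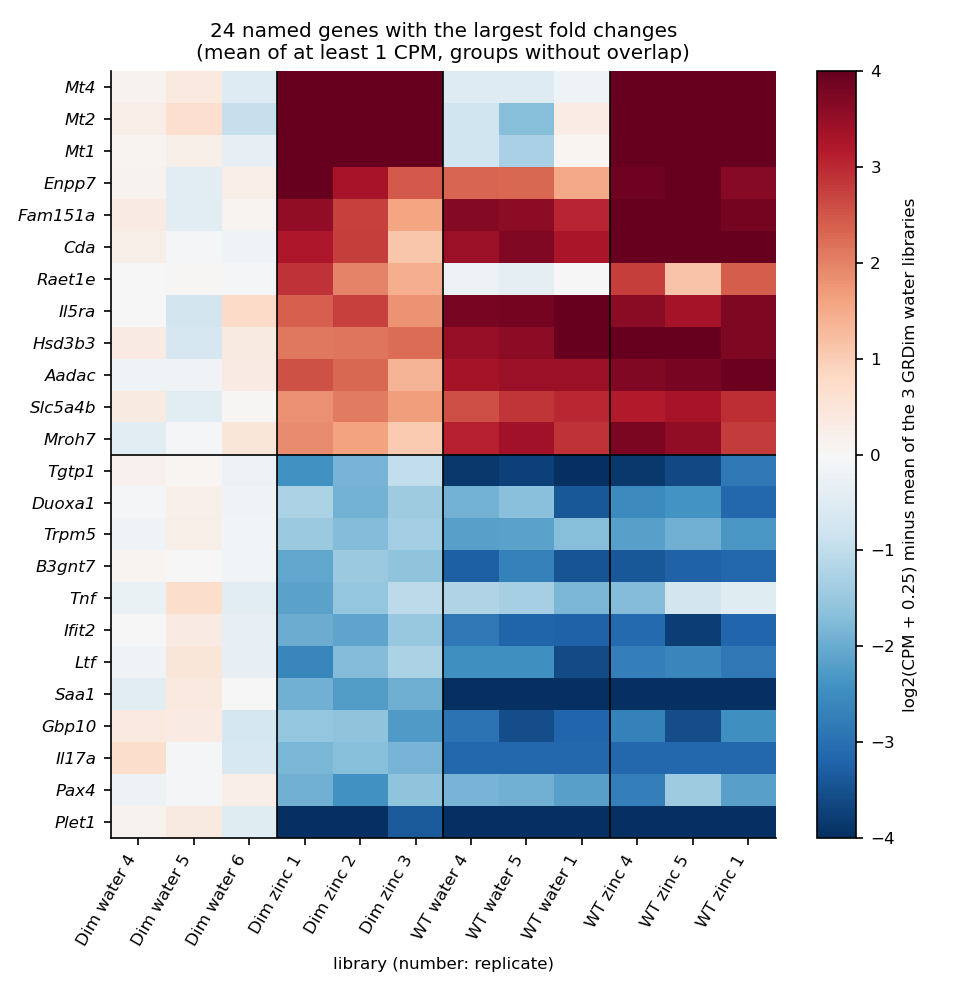
Heat map of the 12 largest called rises (rows above the line) and the 12 largest called falls among genes with a mean of at least 1 CPM, groups without overlap and a proper name, which leaves out Cyp17a1 and Slc28a1 among others, in the 12 muscle-rich libraries (columns), coloured by log2(CPM + 0.25) minus the mean of the 3 GRDim water libraries, with colours saturating at -4 and 4. The zinc columns of GRDim mice are red above the line and blue below it, with zinc replicate 3 paler in Enpp7 (8.40 CPM against 15.4 and 30.0) and Cda (1.13 CPM against 4.13 and 5.79).

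In the necroptosis and pyroptosis list 2 of 23 were called lower, beside 0.558% of all genes, and 0 higher. The 2 were the gasdermins Gsdmc3 (-0.94 ± 0.18) and Gsdmc2 (-0.88 ± 0.21), close paralogs whose reads may be split. The call on Gsdmc2 was lost in 5 of the 6 settings that left out a library, and the count was 0 without zinc replicate 1 and with the tissue label, and 1 without zinc replicate 2 or any 1 of the water libraries. Zbp1, the nucleic acid sensor upstream of necroptosis, had 117, 122 and 114 CPM on water and 68.2, 78.9 and 80.3 CPM on zinc (-0.63 ± 0.16, adjusted p = 0.0408), Mlkl, the executioner, had -0.52 ± 0.09 (adjusted p = 0.0025) and Ripk3, its kinase, -0.48 ± 0.10 (adjusted p = 0.0121). All were past the adjusted p but under the fold threshold, with groups that did not overlap. Nr3c1, the glucocorticoid receptor gene, is changed in GRDim mice by a point mutation, so its counts do not check the genotype. It had 233, 240 and 233 CPM on water and 304, 314 and 269 CPM on zinc (0.33 ± 0.07, adjusted p = 0.0139). Among 19 glucocorticoid response genes tested 1 was called higher, beside 0.771% of all genes, and 0 lower. The call was on Sgk1, a kinase that regulates sodium uptake. Sgk1 went from 72.2, 68.2 and 98.5 CPM to 297, 247 and 189 CPM (1.62 ± 0.22, adjusted p = 0.00456). Fkbp5, Tsc22d3 and Per1 had values of 0.10, 0.27 and 0.10. Agtpbp1, a deglutamylase, had 12.2 to 12.8 CPM on water and 21.0 to 27.6 CPM on zinc but did not pass (0.93 ± 0.25, adjusted p = 0.0533). It was called in 4 of 15 alternative settings (the 6 libraries alone, these with a replicate block, DESeq2 and the stricter filter) and its difference was 1.51 (adjusted p = 2.53e-05) in the libraries poor in muscle.

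Several groups had no call. No member of the cell cycle list was called in edgeR or DESeq2. In edgeR 13 of 22 tested passed the adjusted p with a negative value under the fold threshold, beside 1228 of all 15947 genes. An unadjusted p below 0.05 was reached by 19, beside 3620 of all genes. Of the 22, 21 had a negative value. The list sum ran from 2102 to 2183 CPM on water and from 1710 to 1822 CPM on zinc. Ccnd1, cyclin D1, had the smallest p (-0.59 ± 0.06, adjusted p = 0.000218). No stem cell, Paneth, goblet, enterocyte, fibroblast, endothelial or enteric neuron and glia marker was called in edgeR or DESeq2. In that order 5, 1, 4, 2, 0, 1 and 2 had an unadjusted p below 0.05. The numbers tested were 11, 14, 12, 12, 10, 9 and 12. Of all 15947 genes, 3620 had such a p. Without zinc replicate 3, 3 Paneth markers were called higher, Defa22 and Itln1 among them, and 1 enteric neuron and glia marker was called without water replicate 6 or zinc replicate 3. The Paneth sum was widely spread among zinc libraries (6380, 4592 and 2966 CPM) beside 3775 to 4121 CPM on water. No heat shock and ER stress gene (of 20), clock gene (of 18) or immediate early gene (of 15) was called by either tool. At an unadjusted p below 0.05 there were 8, 6 and 8, beside 3620 of all 15947 genes. In edgeR 0, 3 and 2 of them passed the adjusted p. With the 6 libraries alone, 1 heat shock and ER stress gene and 1 clock gene were called higher.

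The zinc libraries were not equally far from the water libraries. Zinc replicate 3 was the zinc library nearest to the water mean in 85 of the 123 genes called higher and in 59 of the 89 called lower, beside 46.1% of all genes tested. Zinc replicate 1 was the nearest in 14 and 14, and zinc replicate 2 in 24 and 16. Without zinc replicate 3, 200 genes were called higher and 104 lower. Without any one of the other 5 libraries, 64 to 79 were called higher and 46 to 73 lower. All 123 and all 89 genes kept their sign in each of these 6 fits. With the tissue label as covariate 44 were called higher and 20 lower, of which 31 and 11 were among the 123 and the 89. Under that covariate Duoxa1 changed sign and 46 other named genes lost their call with the sign kept, among them Sgk1, Reg3g, Reg3b, Saa1, Tlr2, Duoxa2, Il17a, Ifit2, Il18bp, Cxcl9, Cxcl10, Gzmb, Gzma, Gclm, Aadac, Cda, Raet1e, Il5ra and Slc6a20a. With the muscle class as covariate in all 22 libraries, 40 named genes lost theirs, and 4 drug and steroid metabolism genes were called higher and 4 type 2 interferon genes, 4 genes of the response to microbes and 1 lymphocyte marker lower. Among the 68 named genes that were called, 9 were called in each of the alternative settings that gave them a value: Mt1, Mt2, Mt4, Slc30a2, Slc39a4, Hsd3b3, Aqp7, Cd38 and Gbp2. Other calls lost on leaving out a library included Il17a and 4732465J04Rik in 3 of the 6 settings, Cda, Fam151a, Smpdl3b, St6galnac6, Tgtp1 and Duoxa1 in 2, and Gbp10, Gsdmc3 and Reg3b in 1. Cd38, an ectoenzyme that consumes NAD, had 263, 261 and 270 CPM on water and 123, 129 and 143 CPM on zinc (-1.01 ± 0.09, adjusted p = 0.00018).

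The 6 muscle-poor GRDim libraries, which share no library with this comparison, gave a second reading of zinc in GRDim mice. Of the 3 water columns 2 carry the same name, so that which replicate each is cannot be told, and they were used as unnumbered libraries of their group. There the tissue label runs the other way, zinc being IEC and water being ileum. Of 15459 genes tested 135 were called higher (0.873%) and 221 lower (1.43%). Of the 123 genes called higher in the muscle-rich libraries 120 were tested there, 114 had the same sign and 41 were called higher, which is 34.2% of the 120 and 30.4% of the 135. Of the 89 called lower 89 were tested, 87 had the same sign and 55 were called lower, which is 61.8% of the 89 and 24.9% of the 221. Over all 15381 genes tested in both, 49.2% were positive and 50.1% negative in the muscle-poor libraries. None of the genes called in the muscle-rich libraries was called in the opposite direction. The medians there were 0.80 and -1.22, beside -0.001 over all genes.

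**Figure D5:**
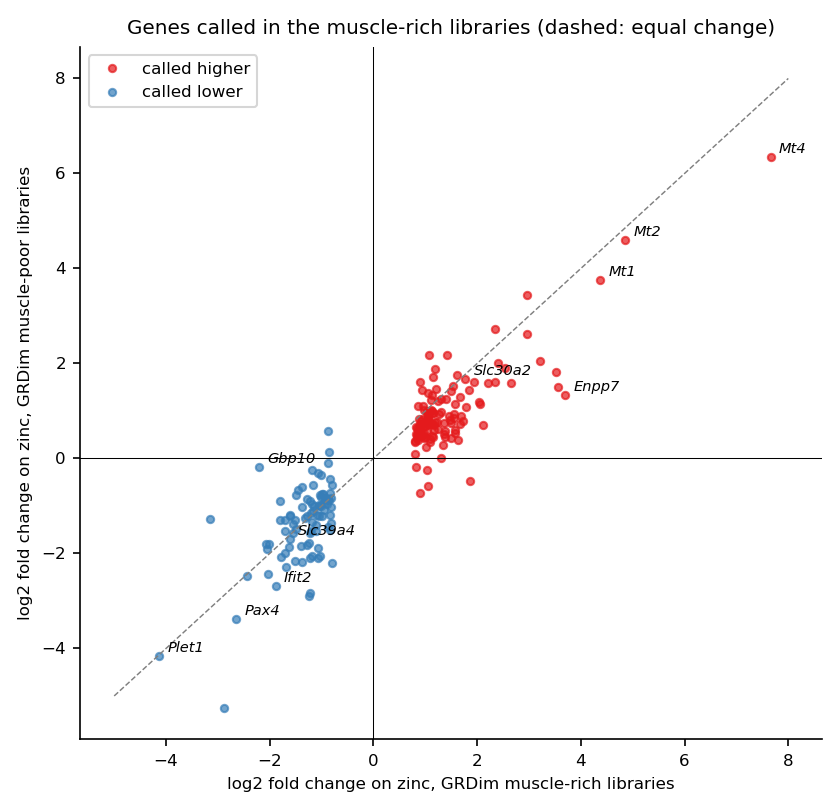
Log2 fold change on zinc in the muscle-rich (horizontal) and muscle-poor (vertical) GRDim libraries for the genes called in the muscle-rich ones that were also tested in the other, 1 point per gene, with a dashed line of equal change. Mt4, Mt2 and Mt1 lie at the upper right and Plet1 at the lower left near the line, Enpp7 (3.69 against 1.33) lies below it, and Gbp10 (-2.21 against -0.19) lies off it.

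By group, the type 2 interferon list had 21 members called lower there (median -0.82), the epithelial response to microbes 4 (median -0.63), and drug and steroid metabolism 9 called higher (median 0.59). Slc39a4 changed by -1.70, Slc30a2 by 1.67, Mt1 by 3.75 and Ifit2 by -2.68, and each was called. Sgk1 went from 75.7 to 171 CPM on water to 403 to 506 CPM on zinc (1.76, adjusted p = 0.0109). Gata4 (0.42), Enpp7 (1.33) and Cyp3a11 (1.08) were not called. The zinc effect itself differed between muscle-rich and muscle-poor GRDim libraries in 3 genes (0.0194% of those tested, adjusted p under 0.05 for the interaction in edgeR). At an unadjusted p under 0.05 there were 1225. DESeq2 gave 37 genes by adjusted p. Tfrc had a log2 value of 0.75 on zinc in the muscle-rich libraries, 1.08 in the GRWT libraries and -0.33 in the muscle-poor GRDim ones (252 to 307 CPM on water, 193 to 259 CPM on zinc), an interaction of 1.09 with adjusted p = 0.0126. Slc43a3, a purine carrier, stood at -0.37 here and at -1.67 where muscle was scarce, an interaction of 1.32 with adjusted p = 0.0437.

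GRWT mice give the same treatment with the wild-type receptor, in 6 muscle-rich libraries that share none with the GRDim ones and mix both tissue labels in each group. There 17 genes were called higher and 9 lower. Of the genes called in GRDim mice, 8 were called higher in GRWT mice too (Mt1, Mt2, Mt4, Slc30a2, Raet1d, Raet1e, Crym and Gm5401) and 1 lower (Slc39a4). The median GRWT value was 0.28 over the 123 genes and -0.18 over the 89. A call in one genotype and none in the other does not show a difference, and the interaction passed in 42 genes (0.263% of those tested), 13 of them among the 123 and 2 among the 89. The effect was larger (more positive) in GRDim mice for 36 of the 42.

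Slc47a1, an exporter of organic cations, had 1.99, 1.45 and 2.11 CPM on water and 5.95, 6.30 and 6.14 CPM on zinc in GRDim mice and 13.7 to 17.7 CPM on water and at most 14.03 CPM on zinc in GRWT mice, an interaction of 1.92 (adjusted p = 0.0014). Hsd3b3 (interaction 2.17, adjusted p = 0.0262), Slc5a4b (1.72, adjusted p = 0.0262) and Il5ra (2.93, adjusted p = 0.035) followed the same course, each lower on water in GRDim than in GRWT libraries: Hsd3b3 had 0.91 ± 0.41 CPM (SD, n = 3) there, against 12.1 to 19.0 CPM. Tlr2 fell on zinc in GRDim mice and ranged over 3.46 to 4.78 CPM on water and 3.69 to 4.73 CPM on zinc in GRWT mice (interaction -1.02, adjusted p = 0.0442). Without GRWT zinc ileum replicate 1, a library apart from the other GRWT ones on the second principal component, 6 genes passed the interaction, and without GRDim zinc replicate 3, 346 did.

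GRWT levels are given beside GRDim levels for genes chosen after their values were seen. On water, Ifit2 was at 61.3 to 96.3 CPM in GRDim and 7.92 to 10.3 CPM in GRWT libraries, Saa1 at 134 to 234 and 3.16 to 3.19 CPM, and Plet1 at 69.2 to 124 and 0.96 to 2.05 CPM. On zinc, the GRDim values (17.6 to 26.7, 37.3 to 47.3 and 3.84 to 9.24 CPM) lay between. For Fabp2 the GRWT water range was 5028 to 5922 CPM, for Sgk1 282 to 330 CPM and for Aadac 31.0 to 33.4 CPM, and the GRDim zinc ranges (3267 to 4687, 189 to 297 and 7.62 to 17.8 CPM) again lay between those and GRDim water, except that zinc replicate 1 of Sgk1 (297 CPM) reached the GRWT range. Other genes went past it: Mt1 reached 1356 to 1753 CPM on zinc against 29.3 to 75.6 CPM in GRWT water libraries, and Enpp7 reached 8.40 to 30.0 CPM against 4.31 to 7.69 CPM. The comparison of genotypes on water and that of zinc in GRDim mice share the 3 GRDim water libraries, so these levels are side by side and no relation between them was computed.

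Genes that the study listed as raised or lowered by zinc in the ileum of C57BL/6J mice, which are other animals of another strain, were counted in the same fit. Of 123 raised genes tested 32 were called higher, beside 0.771% of all genes, and 0 lower. The raised genes had a median of 0.62, beside -0.01 over all genes, and 116 of them had a positive value. Of 129 lowered genes tested 27 were called lower, beside 0.558% of all genes, and 0 higher. The lowered genes had a median of -0.53, and 115 of them had a negative value. With the tissue label as covariate the counts were 12 and 6, and without zinc replicate 2 the first was 21. Crym and Fam210b from the raised list had 1.196 and 0.88 in the GRDim muscle-rich libraries, and Smpdl3b, a lipid phosphodiesterase of the lowered list, fell from 52.5 to 58.5 CPM to 27.2 to 35.3 CPM (-0.83 ± 0.11).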

How the data were processed

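RNA of the small intestine of 22 mouse libraries was sequenced single-end from stranded libraries on an Illumina NextSeq 500. Per the submitters' processing notes and the study's methods, the authors trimmed reads with Trimmomatic, mapped them to mm10 with HISAT2 2.0.4 and obtained gene counts from featureCounts without multimapping reads; the annotation release and strand setting are not given in the sources used here. The deposited file holds these raw counts for 54838 genes, of which 54809 were found in GENCODE vM21 for names and positions. Of the called genes, 60 share exonic bases with another gene, so their counts are uncertain.

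The 12 libraries with Myh11 above 100 CPM (raw count over library total) were fitted together in edgeR 4.0.16 (R 4.3.3) with 4 means, genotype by drinking water, TMM normalisation, filterByExpr and robust quasi-likelihood F tests, leaving 8 residual degrees of freedom. Levels are TMM-normalised CPM. SE was derived from F. P-values were adjusted by Benjamini-Hochberg over all genes tested. The zinc effect in muscle-poor libraries and the interaction with muscle class came from a like fit of the 12 GRDim libraries. Interactions were called by adjusted p under 0.05 alone. The fits were tested on simulated data.

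Named genes were the 12 largest called changes per direction (mean of at least 1 CPM, no overlap between groups, proper name), 15 genes of interest, up to 3 called members per direction of each of 45 lists (or the 2 of smallest p), and up to 5 genes per direction of each interaction. Genes and values given beyond these illustrate lists and were chosen after their values were seen. Members, lists and rules were chosen with earlier results of these data known. DESeq2 1.42.0, other normalisations and filters, covariates, a replicate block and leaving out each library were tried as alternatives. A motif was counted for a gene if any of its windows held it. Promoter windows are from RefSeq; no protein sequences were used. Some genes that the rule names are not reported here.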

Additional observations from a re-analysis of the deposited data

Results flagged for a closer look

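The zinc effect differed between GRDim and GRWT mice, by the interaction in edgeR, in 42 genes. Among the named genes the difference (GRDim minus GRWT, log2) was positive for Il5ra (2.93), Hsd3b3 (2.17), 4732465J04Rik (2.03), Slc47a1 (1.92), BC035947 (1.80), Slc5a4b (1.72), Fhl1, a muscle and epithelial LIM protein (0.96), Fam83b (0.68) and the heat shock cofactor Dnajb1 (0.54). It was negative for Tlr2 (-1.02), Tac1 (-0.79), Tmsb10, an actin-binding peptide (-0.53), and the nuclear pore gene Nup93 (-0.52). For BC035947 and 4732465J04Rik the values had opposite signs, with 1.04 and 0.83 in GRDim mice and -0.76 and -1.202 in GRWT mice.

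The effect differed between muscle-rich and muscle-poor GRDim libraries in 3 genes, among them Slc43a3 (1.32, muscle-rich minus muscle-poor) and Tfrc (1.09). Groups of 3 libraries were not tested for outlying samples.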

How the results depend on the processing

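All 123 and 89 called genes kept their sign in the fits of the 12 libraries that changed the size factors, used library totals, used DESeq2 or dropped the filter, and the counts stayed within 1.5 times under these, the stricter filter and the 6 libraries alone (113 to 125 higher, 63 to 121 lower). With all 22 libraries and the muscle class as covariate 38 were called higher and 49 lower, and with the tissue label as covariate 44 and 20. The cause was not tested. Leaving out 1 library gave 64 to 200 genes called higher and 46 to 104 lower (79 and 50 without water replicate 4, 73 and 46 without water replicate 5, 79 and 73 without water replicate 6, 64 and 46 without zinc replicate 1, 68 and 49 without zinc replicate 2, 200 and 104 without zinc replicate 3). With the tissue label, Dcn went from -0.15 to 0.019, Cela1 from 0.28 to -0.057 and Duoxa1 from -1.70 to 0.23; without water replicate 4, which holds all reads of Lep among the 6 libraries, the value of Lep became 0.00 (-6.73 at the other end, without water replicate 6). The split of calls was 58.0% higher, 49.8% with the 6 libraries alone, 43.7% with the muscle covariate and 68.8% with the tissue label.

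The number of genes whose zinc effect differed between genotypes was 42, and 307 with DESeq2, 121 with library totals, 269 with no filter, 26 with the tissue label and 0 with 22 libraries; it ran from 5 to 346 when single libraries were left out (5, 5 and 30 without GRDim water replicates 4, 5 and 6, 7, 5 and 346 without GRDim zinc replicates 1, 2 and 3, 26, 21 and 31 without GRWT water IEC 4, IEC 5 and ileum 1, and 74, 64 and 6 without GRWT zinc IEC 4, IEC 5 and ileum 1). The 3 genes that differed between muscle classes became 37 with DESeq2 and 130 with no filter, and 0 to 82 without single libraries (0 without zinc ileum replicate 2, 7 without zinc ileum 3, 13 and 82 without zinc IEC 6 and 4, 1 on leaving out each of the water IEC libraries). The cause was not tested.

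With a replicate block in the 6 libraries alone, 147 genes were called higher and 108 lower. Same-numbered libraries correlated at 0.201, -0.032 and 0.312 in their deviations from the group means. Zinc replicates 1 and 3 correlated best with water replicates 4 and 6, which have the same number in the library names. Zinc replicate 2 correlated better with water replicate 4 (0.133) than with its own number. Deviations of 3 libraries from their own mean depend on each other, so these values cannot decide whether the numbers pair them. Under the block 13 named genes were not called, Ifit2, Plet1 and Cubn among them. With 3 counts at 0.195 to 0.219 CPM, genes under about 1 CPM rest on few reads.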
